A study of Mus musculus with 6 samples.

Results

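The genes described here encode the proteins of the cytosolic ribosome and their closest like-named copies. They were taken by name from the deposited table: every symbol made of Rpl, Rps or Rplp and a number, and Rpsa. Symbols of pseudogenes (5 with -ps) and the S6 kinase genes with Rps19bp1 (11) were left out. The rule selected 82 of the 15035 genes in the table, 32 named for the small subunit and 50 for the large subunit. The rule reads the name and no measured value.

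RNA-seq libraries were compared from mouse CEBPA/CSF3R leukemia cells, which are BALB/c bone marrow cells carrying mutant CSF3R, the receptor of granulocyte colony-stimulating factor, and mutant CEBPA, a myeloid transcription factor, both delivered by retrovirus. Every library of both groups comes from cells with both mutant genes, grown in IMDM with serum. One group of 3 libraries received DMSO, the solvent control. The other group of 3 received GSK-LSD1 at 4 nM for 48 h, a compound that inhibits LSD1, an enzyme that removes methyl groups from histones. The title of the series names joint inhibition of LSD1 and JAK/STAT signalling in acute myeloid leukemia, and its design compares GSK-LSD1 alone with DMSO. Separate cultures are not stated for the replicates, so p-values cover only the spread among these libraries, and that spread may be technical.

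The ribosome is built from ribosomal RNA and a fixed set of proteins, and cells that grow fast give a large part of their transcription and translation to making it. Ribosomal protein mRNAs of mammals begin with a run of pyrimidines at the 5′ end (the 5′TOP motif), through which their translation follows the kinase complex mTORC1. Blood cells are known to be sensitive to the supply of these proteins: loss of 1 copy of any of several of their genes causes Diamond-Blackfan anemia, and loss of RPS14 is part of the 5q- syndrome.

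The promoter sequences of 9 of the genes show pyrimidine runs around the annotated start, which differ in length and place between members. They are from RefSeq (GRCm38.p6), which matched 62 of the 82 genes, with 74 promoters. Each runs 5′ to 3′ along the gene's strand from 70 bases before the annotated start to 30 bases after it, and the capitals mark its longest unbroken run of C and T, the first of them where runs tie, as in Rps27l. Where a gene had more than 1 promoter, the one with the longest run is shown. The first 6 belong to the genes with the largest falls among those with an entry.
Rpl35a: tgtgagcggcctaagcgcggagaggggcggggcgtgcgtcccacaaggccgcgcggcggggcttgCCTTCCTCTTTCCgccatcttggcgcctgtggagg
Rpl37rt: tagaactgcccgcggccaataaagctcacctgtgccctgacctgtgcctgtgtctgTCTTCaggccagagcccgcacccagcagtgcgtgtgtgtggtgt
Rpl37: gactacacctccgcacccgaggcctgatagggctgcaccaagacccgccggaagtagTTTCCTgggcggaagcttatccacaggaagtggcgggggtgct
Rpl27a: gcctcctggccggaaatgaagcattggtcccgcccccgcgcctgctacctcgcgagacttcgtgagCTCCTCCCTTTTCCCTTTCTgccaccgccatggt
Rps27l: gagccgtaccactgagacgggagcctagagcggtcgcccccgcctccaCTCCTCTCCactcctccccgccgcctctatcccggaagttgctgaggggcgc
Rps2: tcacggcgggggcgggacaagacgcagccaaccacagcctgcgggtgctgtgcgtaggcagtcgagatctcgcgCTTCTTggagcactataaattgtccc
The next 3 belong to genes that did not pass the test, those with fold changes nearest to 0 among genes with an entry.
Rplp2: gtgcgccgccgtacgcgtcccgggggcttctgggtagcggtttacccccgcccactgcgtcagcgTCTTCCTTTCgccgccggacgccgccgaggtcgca
Rps15a: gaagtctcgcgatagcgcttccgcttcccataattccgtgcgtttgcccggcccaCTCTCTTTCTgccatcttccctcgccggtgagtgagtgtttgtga
Rps9: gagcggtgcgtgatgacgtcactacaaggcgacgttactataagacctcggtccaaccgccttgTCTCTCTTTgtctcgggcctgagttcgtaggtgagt

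In this order the windows lie at chr16:33056412-33056511 (plus strand), chr5:115110239-115110338 (minus), chr15:5116543-5116642 (plus), chr7:109519125-109519224 (plus), chr9:66946016-66946115 (plus), chr17:24719993-24720092 (plus), chr7:141447581-141447680 (plus), chr7:118116118-118116217 (minus) and chr7:3703971-3704070 (plus). The run was 20 bases long in Rpl27a and 13 in Rpl35a, 2 genes with large falls. It was 9 bases in Rps27l, which fell, and 10 in Rplp2 and Rps15a and 9 in Rps9, which did not pass the test. It was 6 bases in Rpl37 and Rps2 and 5 in Rpl37rt, a retrocopy of Rpl37. These lengths cannot be read as lengths of a 5′TOP, because the marked run need not lie at the 5′ end of the mRNA. The run ended before the RefSeq start in Rps27l, Rpl37, Rpl37rt and Rps15a and began after it in Rps2. GENCODE, a second annotation, starts Rpl37 at 5116645, after the end of the printed window.

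After 48 h of GSK-LSD1, most ribosomal protein genes were slightly lower, and none was higher. Of the 82 genes, 80 passed the filter, which asked for 3 or more libraries with a value of 10 or more. By limma, with p-values adjusted over the 11588 genes tested (Benjamini-Hochberg) and called under 0.05, 63 of the 80 were lower, 0 were higher and 17 did not pass, while 68 had an unadjusted p under 0.05, as had 5613 of all genes tested. Over all genes tested, 20.5% were lower and 20.6% were higher. The change was small and alike in most members: the median log2 fold change was -0.19, the quartiles were -0.24 and -0.14, and no member reached 2-fold. The median of all genes was -0.01. In bulk RNA, fewer cells of a type and less RNA per cell cannot be told apart, and values scaled within a library give shares of that library and no amounts per cell.

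Every one of the 80 fitted fold changes lay below 0, from -0.70 to -0.03, against 51.2% of all genes. With quantile scaling Rpl21 came to 0.00, and it was at 0.05 without DMSO replicate 3. Rpl34, which has few reads, was at 0.14 without DMSO replicate 2 and at 0.17 without GSK-LSD1 replicate 2. In 58 members every GSK-LSD1 library was below every DMSO library, which was so for 24.8% of all genes tested. In the other 22 the groups overlapped, and in none was every GSK-LSD1 library higher (24.7% of all genes).

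**Figure D1:**
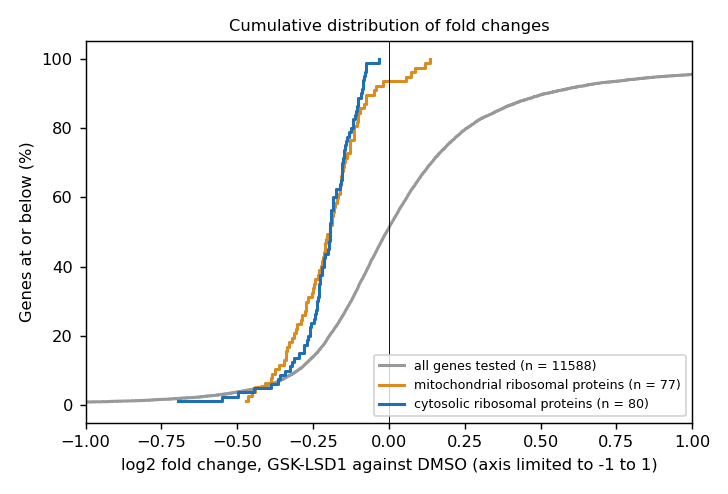
Cumulative share of genes (%) against log2 fold change, GSK-LSD1 against DMSO, for the 80 tested cytosolic ribosomal protein genes, 77 mitochondrial ribosomal protein genes and all 11588 genes tested; the horizontal axis is limited to -1 to 1. The cytosolic curve rises steeply around its median of -0.19 and reaches 100% below 0, where all genes are at 51.2%.

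Ribosomal protein genes are short and highly expressed, so they were set beside other genes of these kinds. Of 2419 genes outside the family with a mean value of at least 1000, 34.9% were lower, 18.2% were higher and their median log2 fold change was -0.06. Of 3371 genes with a coding length under 1000 bases, 25.4% were lower, also with a median of -0.06. Of the 616 genes with both features, 40.6% were lower and the median was -0.08. The count of members depends on how the spread was estimated: without the mean-variance trend 35 members were lower, beside 14.3% of all genes. Left-out libraries gave between 52 lower members, without DMSO replicate 2, and 70, without DMSO replicate 1.

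Summed over all 82 genes, ribosomal proteins took 5.42%, 5.82% and 5.75% of the total in DMSO replicates 1 to 3 and 5.03%, 5.06% and 5.05% in the GSK-LSD1 replicates. The groups did not overlap, and the DMSO libraries were spread more widely. The means were 5.66% ± 0.215 and 5.05% ± 0.0121 (SD, n = 3 each), so that the GSK-LSD1 share was 89.1% of the DMSO share. With reads counted in units of a library's smallest value, the 95% Wilson interval was 5.404% to 5.432% in DMSO replicate 1 and 5.044% to 5.071% in GSK-LSD1 replicate 2, the closest pair of libraries across the groups. Such intervals cover counting error only.

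**Figure D2:**
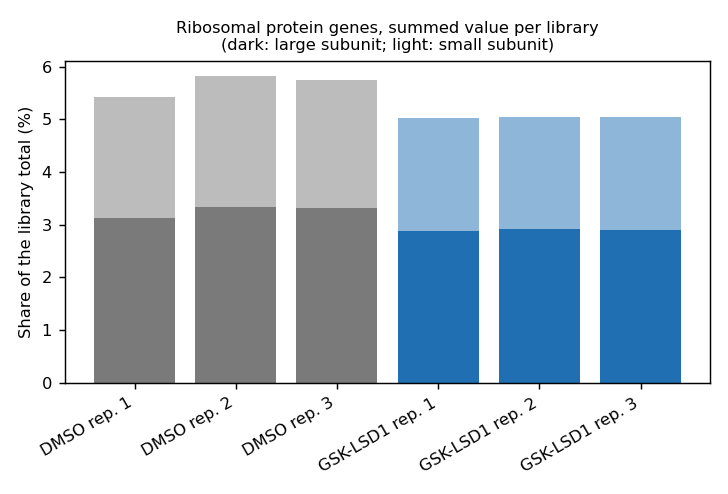
Summed value of the ribosomal protein genes as a percentage of the library total, 1 bar for each of the 3 DMSO (grey) and 3 GSK-LSD1 (blue) libraries, dark for the large and light for the small subunit. DMSO bars end between 5.42% and 5.82% and GSK-LSD1 bars between 5.03% and 5.06%.

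Both subunits were lower. The small subunit genes took 2.30%, 2.48% and 2.43% of the DMSO libraries and 2.14%, 2.14% and 2.15% of the GSK-LSD1 libraries. Large subunit genes took 3.12%, 3.34% and 3.32%, and 2.89%, 2.91% and 2.90%. The ratio of the small to the large subunit sum stayed between 0.731 and 0.745 in all 6 libraries. Of the small subunit genes, 26 of 32 were lower (median log2 fold change -0.19), and of the large subunit genes 37 of the 48 tested (median -0.20).

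DMSO replicate 1 stood between the groups. Expressed as the difference from each gene's own mean on the log2 scale, the median over the 80 genes was 0.035 in DMSO replicate 1, 0.152 in replicate 2 and 0.122 in replicate 3, and -0.099, -0.092 and -0.096 in the GSK-LSD1 replicates. The highest library of a gene was DMSO replicate 2 for 42 genes, DMSO replicate 3 for 35 and DMSO replicate 1 for 3, and never a GSK-LSD1 library. Ribosomal protein genes also varied more among DMSO libraries: the median coefficient of variation of the 73 members with a mean of at least 1000 was 5.75% with DMSO and 3.09% with GSK-LSD1. Other genes at such levels had 4.20% and 2.76%. Whether this spread has a part in the difference between groups was not tested; without DMSO replicate 1 the difference in summed share was -0.737 percentage points, and without replicate 2 it was -0.536, against -0.615 with all libraries.

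**Figure D3:**
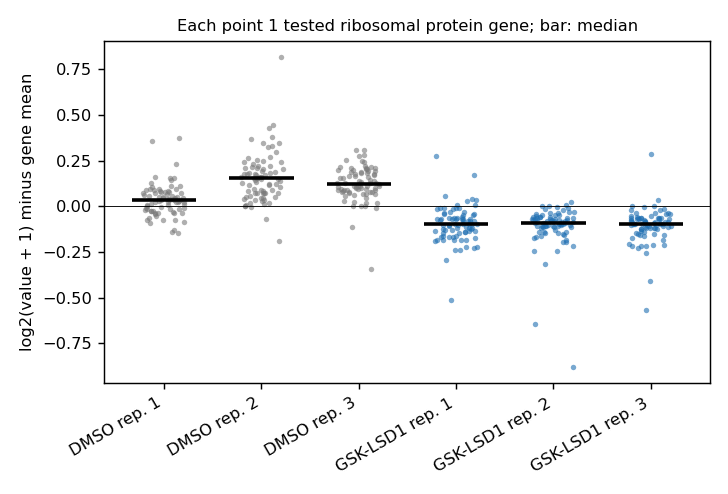
Each point is 1 of the 80 tested ribosomal protein genes, placed at its log2(value + 1) minus the gene's mean over the 6 libraries; the bar is the median of a library. Medians are 0.035 to 0.152 in the DMSO libraries and -0.099 to -0.092 in the GSK-LSD1 libraries.

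The library totals were close, between 9877460 and 10107885 scaled counts, or 9572638 to 10199533 reads if the smallest value is 1 read. The labelled cell type was checked against its markers: all 10 myeloid progenitor markers listed were in the table and tested, among them Mpo (7149 to 9135), Spi1 (1029 to 1300) and Cebpa (3802 to 4869). Of the 10, 5 were higher and 3 lower with GSK-LSD1. The log2 fold change was 2.49 for Cd34, 2.03 for Csf3r, -1.15 for Ms4a3, -0.92 for Elane and -0.67 for Prtn3. Kit was low, at 19.4 to 43.5. Elane was at 47.6 to 119 and Csf3r, with DMSO, at 93.6 to 119, levels that overlap those of the T cell gene Lck (78.8 to 137). Mutant CEBPA and CSF3R were delivered by retrovirus, and whether their reads enter the values of Cebpa and Csf3r was not tested. Listed genes of other lineages were low in sum. The 5 erythroid genes in the table, among them Slc4a1, Alas2 and Klf1, summed to 198, 216 and 249 with DMSO and 44.9, 65.2 and 42.8 with GSK-LSD1, and all 5 were lower. Slc4a1 was at 0 in GSK-LSD1 replicate 1. Of T cell genes, 3 were in the table and summed to 118 to 141 and 91.1 to 95.9, most of it Lck, which was lower, while Cd3g was not tested, at 3.91 to 3.98 and 6.21 to 12.7, with Cd3d at 0 in all libraries but DMSO replicate 2. B cell genes summed to at most 5.10 in any library, with overlap between the groups, and 3 stromal genes to 250 to 254 with DMSO and 333 to 359 with GSK-LSD1. The part of these cell types in the ribosomal protein result was not tested.

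Among the genes past the threshold, Rpl35a, a large subunit protein and one of the Diamond-Blackfan anemia genes, fell most (chromosome 16, 33056453 to 33060189, plus strand, GRCm38). It held 588, 760 and 693 with DMSO and 455, 449 and 481 with GSK-LSD1. The groups did not overlap, and the log2 fold change was -0.55 with a standard error of 0.0728 (adjusted p = 1.18e-07). Rps29, a small zinc-binding protein of the small subunit head (chromosome 12, 69157722 to 69159186, minus strand), held 1872, 2457 and 2104 with DMSO and 1806, 1543 and 1375 with GSK-LSD1. Its groups came close, since GSK-LSD1 replicate 1 was just under DMSO replicate 1, and the log2 fold change was -0.45 (SE 0.0715, adjusted p = 4.10e-06). Rps29 lost its call without the mean-variance trend (adjusted p = 0.0505).

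Rpl37, a zinc-binding large subunit protein (chromosome 15, 5116645 to 5119140, plus strand), varied little within groups. Its values were 3554, 3675 and 3691 against 2920, 2681 and 2742, a log2 fold change of -0.39 with an SE of 0.0453 (adjusted p = 8.59e-09), the smallest p of any member. The retrocopy Rpl37rt held 51.8, 51.5 and 39.8 against 27.5, 40.4 and 33.1. These groups overlapped, and its log2 fold change was -0.50 (SE 0.201, adjusted p = 0.0462). Rpl37rt was no longer past the threshold under 9 of the 15 alternative settings that tested it, of 16 in all. Reads of Rpl37 and Rpl37rt can be shared, because 82.2% of the 50-base stretches of the Rpl37 coding sequence also occur in another annotated gene, most often Rpl37rt.

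Rpl36, of the large subunit, fell from 2424, 2885 and 2434 to 2063, 1998 and 1935 (log2 fold change -0.36). Rps20, a protein of the small subunit head, fell by the same amount, from 7872, 8770 and 7605 to 6655, 6123 and 6124. In Rpl27a, of the large subunit, the values were 8293, 9717 and 9355 against 6926, 7061 and 7538 (log2 fold change -0.34). All 3 genes had groups clear of each other, with adjusted p-values of 9.20e-07, 1.82e-07 and 5.12e-07.

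Rps2, which lies at the entry of the mRNA channel, held 13523, 14350 and 15299 with DMSO and 10912, 12282 and 11382 with GSK-LSD1. Its groups did not overlap (log2 fold change -0.32, adjusted p = 1.35e-06). An exon of Rps2 overlaps Snhg9 on the other strand, and strand handling is not given in the sources used here, so its value is uncertain to that extent. Rpl41, the smallest ribosomal protein, fell from 10486, 11954 and 10843 to 8726, 9023 and 8988 (log2 fold change -0.31, adjusted p = 8.09e-07). With these, the 10 largest falls among called members also hold Rps27l, described with its counterpart further on.

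**Figure D4:**
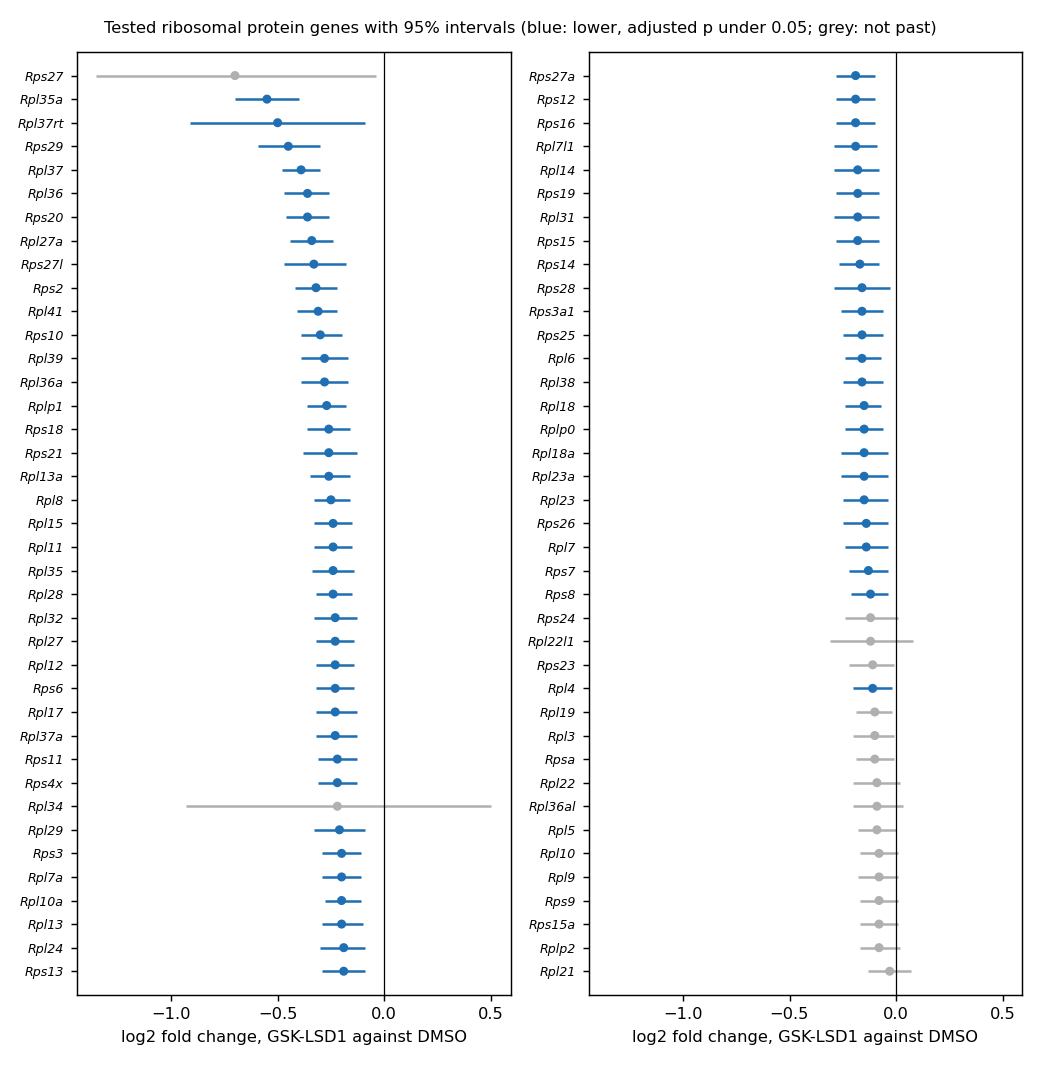
Log2 fold change, GSK-LSD1 against DMSO, with its 95% interval from limma for 78 of the 80 tested genes, in order of size from the upper left; blue genes were lower with an adjusted p under 0.05 and grey genes did not pass. Wide intervals belong to the genes with few reads, Rps27, Rpl37rt and Rpl34.

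All 14 listed proteins of the small subunit head, the lobe that binds tRNA and contacts the large subunit, were lower, with log2 fold changes from -0.45 to -0.16 and a median of -0.20. In 13 of them the groups did not overlap. Among all tested members 63 of 80 were lower, and among all genes tested 20.5%. Rps10 fell from 4535, 5081 and 4629 to 3632, 3975 and 4000 (log2 fold change -0.30). Rps18 was at -0.26, Rps3 at -0.20, Rps12, Rps16 and Rps27a at -0.19, Rps15 and Rps19 at -0.18, and Rps25 at -0.16. Rps28 was the weakest of them, with 2936, 3633 and 2665 against 2867, 2597 and 2732. Its groups overlapped, and its call (log2 fold change -0.16, adjusted p = 0.0421) was lost under 10 of 16 settings. Exons of Rps10, Rps18, Rps25, Rps27a and Rps28 overlap genes on the other strand.

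Outside the head, Rps6, the protein phosphorylated by the S6 kinases, held 8317, 8514 and 9165 against 7113, 7685 and 7371 (log2 fold change -0.23, adjusted p = 8.66e-05), with no overlap. Rps14, a protein of the small subunit platform, held 4893, 5632 and 5039 against 4486, 4592 and 4694 (log2 fold change -0.17, adjusted p = 0.00309). Its call was lost without the mean-variance trend and without DMSO replicate 2. In Rps4x, of the small subunit body, 15373, 15039 and 15950 stood against 13304, 12848 and 13605, which is a log2 fold change of -0.22 (adjusted p = 8.16e-05).

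In the large subunit, 8 proteins at the exit of the peptide tunnel were tested, of which 6 were lower (median log2 fold change -0.17). Among all tested members 63 of 80 were lower, and among all genes tested 20.5%. Rpl39 had the largest fall of the 8, from 1635, 1770 and 1676 to 1520, 1342 and 1328 (-0.28), followed by Rpl35 (-0.24), Rpl17 (-0.23), Rpl31 (-0.18), Rpl38 (-0.16) and Rpl23a (-0.15). Rpl19 (-0.10, adjusted p = 0.0523) and Rpl22 (-0.09, adjusted p = 0.171) did not pass. Rpl26, another protein of this site, is not analysed here. The Rpl23a call was lost under 8 of 16 settings, and its lowest library was DMSO replicate 1, at 3164 against 3197 to 3396 with GSK-LSD1. Without the mean-variance trend the calls of Rpl35, Rpl31, Rpl38 and Rpl23a were all lost, and those of Rpl39 and Rpl17 were kept. Exons of Rpl23a, Rpl31 and Rpl35 overlap genes on the other strand, as do exons of Rpl12, Rpl15, Rpl22l1 and Rpl30, which are named further on.

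The P stalk, which recruits elongation factors, had 3 of 4 listed proteins lower, beside 63 of 80 tested members and 20.5% of all genes tested. Rplp1 fell from 14103, 15853 and 15447 to 12794, 12567 and 12279 (log2 fold change -0.27, adjusted p = 9.99e-06), Rpl12, at the base of the stalk, was at -0.23 and Rplp0, which anchors the other stalk proteins, at -0.15. Rplp2, the partner of Rplp1, held 6029, 5954 and 6259 against 6077, 5795 and 5447. Its groups overlapped, with a log2 fold change of -0.08 and a 95% interval of -0.17 to 0.02. The difference between Rplp1 and Rplp2 was not tested.

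Rpl5 and Rpl11, which with 5S ribosomal RNA bind and restrain Mdm2, the inhibitor of p53, gave different calls. Rpl11 fell from 6644, 7388 and 7155 to 6191, 5890 and 5837 (log2 fold change -0.24, adjusted p = 4.39e-05). Rpl5 held 7013, 7279 and 7658 against 7119, 6867 and 6684, with overlap (log2 fold change -0.09, 95% interval -0.18 to 0.00, adjusted p = 0.118), and an exon of Rpl5 overlaps Fam69a on the other strand. The difference between the 2 genes was not tested. Of 7 tested genes of the p53 response, Zmat3 was higher (log2 fold change 0.35) and 6 did not pass, among them Mdm2 (0.11) and Cdkn1a (-0.01).

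Of the 11 Diamond-Blackfan anemia genes in the table, 9 were lower, beside 63 of 80 tested members and 20.5% of all genes tested. The median log2 fold change of these anemia genes was -0.24, and that of all tested members -0.19. Rps19, the gene most often mutated in that disease, held 3670, 4096 and 3481 with DMSO and 3324, 3287 and 3269 with GSK-LSD1 (log2 fold change -0.18, adjusted p = 0.00259), without overlap. Its call was lost without the mean-variance trend and without DMSO replicate 2 (adjusted p = 0.05). Besides Rpl35a, Rps29, Rps10 and Rpl11, those lower included Rpl15 (-0.24), Rps26 (-0.14) and Rps7 (-0.13), and Rps26 overlapped between groups. The call of Rps26 was lost under 6 of 16 settings and that of Rps7 under 4. Rps24 and Rpl5 did not pass. Rps24 varied widely with DMSO, at 10536, 11967 and 14051, against 10183, 11456 and 11890 (log2 fold change -0.12, adjusted p = 0.132).

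The 17 members that did not pass the test fall into 2 kinds. Rps27 and Rpl34 had very few reads. Rps27, a zinc-binding small subunit protein, held 17.6, 17.8 and 16.9 with DMSO and 15.3, 8.28 and 8.76 with GSK-LSD1, and passed the filter through the DMSO libraries and 1 GSK-LSD1 library. Its log2 fold change of -0.70 had a 95% interval of -1.35 to -0.04 (adjusted p = 0.0808). Rpl34 ranged from 7.25 to 25.8. Rpl30 was not tested, with values from 2.04 to 10.9, and neither was Rpl3l, at 0 in all DMSO libraries and 1.02, 3.11 and 0.973 with GSK-LSD1.

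Rps27, Rpl34 and Rpl30 encode proteins of every ribosome, but their levels per kilobase of coding sequence were far below those of most other members: 69.2, 46.9 and 25.8 in the DMSO means, beside a median of 11509 over the tested members and all libraries. Of their 50-base stretches, 100%, 72.2% and 83.1% also occur in another annotated gene, for Rps27 most often Rps27rt. The other members with 100% shared sequence had group means of at least 1273, the value of Rpl36al with GSK-LSD1. How reads matching several genes were counted is not given in the sources used here, and the part of shared sequence in these low values was not tested.

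The other 15 had higher values and small fitted changes, all with log2 fold changes between -0.12 and -0.03. Rpl22l1 and Rps24 were the least precise of them, with 95% intervals of -0.31 to 0.08 and -0.24 to 0.01. Rpsa, also known as a laminin receptor, had the highest mean value of all members, at 27838, 30565 and 29272 against 27973, 26858 and 26901 (log2 fold change -0.10, adjusted p = 0.0781). Rpl21 changed least, with 4736, 4726 and 5605 against 5052, 4750 and 4895 and a 95% interval of -0.13 to 0.07 on the log2 scale. Rpl10 (-0.08), Rpl9 (-0.08), Rps9 (-0.08), Rps15a (-0.08), Rpl3 (-0.10) and Rps23 (-0.11), a protein of the decoding centre, lay between. Of these 15, Rpl19 alone had groups clear of each other. A p that misses the threshold does not show that a gene was unchanged: 12 of the 17 passed it under at least 1 of 16 settings, and 5 under none.

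By mean value, the other 4 of the 5 most abundant members were Rpl4, Rps4x, Rplp0 and Rplp1, and all 4 were lower. Rpl4, which lines the peptide tunnel, held 23523, 25430 and 24788 against 22593, 23111 and 22601, with a fitted log2 difference of -0.11 (adjusted p = 0.0466), and its call was lost under 11 of 16 settings. Per kilobase of coding sequence, the DMSO means were highest for Rpl41 (147930), Rplp1 (44253), Rps26 (37143), Rpsa (33023) and Rps24 (30538). Rpl41 has a coding sequence of 75 bases, far shorter than its mRNA, so its value per coding kilobase overstates its level against other genes.

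Several members have a like-named copy, another gene for a similar protein, and 4 such copies were tested. Rps27l, which p53 can induce, fell from 526, 448 and 535 to 398, 414 and 388 (log2 fold change -0.33, adjusted p = 0.000448). Its values were 2511% to 3159% of those of Rps27 with DMSO and 2600% to 5000% with GSK-LSD1. Rps27 had few reads in both groups, at 8.28 to 17.8, and 100% of its 50-base stretches are shared with other genes. The ratio therefore cannot be read as the relation of the 2 mRNAs. Rpl7l1, which acts in assembly of the large subunit, fell from 1389, 1480 and 1458 to 1264, 1275 and 1255 (-0.19), while its counterpart Rpl7 fell by 0.14 on the log2 scale. The call of Rpl7 was lost under 6 of 16 settings. The ratio of Rpl7l1 to Rpl7 was 10.1% to 11.8% with DMSO and 10.5% to 10.7% with GSK-LSD1, with overlap.

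Rpl36al did not pass, with 1237, 1337 and 1493 against 1273, 1315 and 1230 (log2 fold change -0.09), and its counterpart Rpl36a fell from 2983, 3345 and 3658 to 2646, 2795 and 2762 (-0.28). Rpl36al thus stood at 41.5%, 40.0% and 40.8% of Rpl36a with DMSO and 48.1%, 47.0% and 44.5% with GSK-LSD1. The groups of this ratio did not overlap, and it was not tested. Both genes share all of their 50-base stretches with other annotated genes. Rpl22l1 did not pass, with 279, 220 and 290 against 249, 234 and 239, nor did Rpl22, which it can replace, and their ratio of 7.31% to 9.74% overlapped between groups. Over the 8 counterparts in the table, 4 were lower, beside 63 of 80 tested members and 20.5% of all genes tested. The copies Rpl10l, Rpl39l, Rps4l and Rps27rt are not analysed here.

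Many processed pseudogenes of ribosomal protein genes lie in the mouse genome, so shared sequence was measured for each member from the GENCODE annotation of GRCm38. In 13 of 81 members with a coding sequence, under 50% of the 50-base stretches occurred in another annotated gene. Of the 12 of these that were tested, 10 were lower, with a median log2 fold change of -0.21. Of 67 tested members with at least 50%, 52 were lower, with a median of -0.19. Rps3 (8.09% shared) and Rpl8 (8.73% shared) were at -0.20 and -0.25, and Rpl8 fell from 11130, 11846 and 11643 to 9888, 9809 and 9504.

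**Figure D5:**
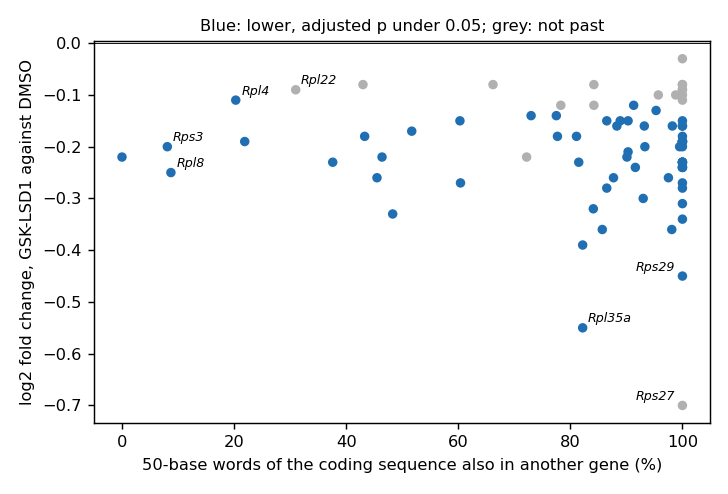
Log2 fold change, GSK-LSD1 against DMSO, against the share (%) of 50-base stretches of the coding sequence found in another annotated gene, for 79 tested members; blue were lower with an adjusted p under 0.05 and grey did not pass. Members at any share lie below 0, with Pearson's r = -0.06.

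Across the 79 tested members with a coding sequence, the fold change was related to coding length with r = 0.40 (Spearman's rho 0.34), so that shorter genes were further below 0, and to shared sequence with r = -0.06 (rho -0.03). For GC content r was -0.16 (rho -0.21). With the mean log2 value of a gene, over all 80, r was 0.51 (rho 0.25). Among the 73 members with a mean value of at least 1000, r was 0.39 for length, -0.33 for GC content and 0.21 for the mean log2 value. These are correlations across genes of the same 6 libraries, and genes are not independent replicates.

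Pyrimidine runs such as those printed were frequent in the family. A run of at least 8 C or T on the sense strand, in the 100 bases shown, was in the promoters of 42 of 62 members (67.7%), of 37.9% of all tested genes and of 39.8% of all genes with a promoter. Among members, 63.0% of those lower and 80.0% of those that did not pass had such a run. The letters CTTTC, which can lie inside such a run, stood on the sense strand in 40.3% of members and 12.7% of tested genes. Within the 300 bases from 250 before to 50 after the start, CCGGAAG on either strand, letters that ETS factors such as GABP can bind, was in 38.7% of members and 21.2% of tested genes, while CACGTG, the E-box that MYC can bind, was in 9.68% and 12%. TATAAA on the sense strand of the shorter window was in 6.45% of members and 2.22% of tested genes. Such matches are descriptions and show no binding.

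Other genes of the ribosome's supply chain were read from lists, whose counts stand beside 20.5% lower and 20.6% higher among all genes tested. All 3 genes listed as ribosomal proteins under other names were lower. Among them, Gnb2l1, the scaffold RACK1, held 16727, 17687 and 16867 against 15478, 14612 and 15072 (log2 fold change -0.18), and Fau, a ubiquitin-like fusion with a small subunit protein, was at -0.14. Of 16 other translation genes whose mRNAs carry a 5′TOP, 12 were lower and 0 higher (median -0.15). Eif3h fell from 5457, 5773 and 5641 to 4182, 4511 and 4492 (-0.36), and Eef1d (-0.24), Npm1 (-0.22) and Eif3f (-0.18) followed. Eef1a1 (-0.05), Eif3e (-0.07), Tpt1 (0.04) and Hnrnpa1 (-0.20) did not pass. Without the mean-variance trend 2 of these 16 were lower.

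Of 7 host transcripts of small nucleolar RNAs, 5 were lower (median log2 fold change -0.28). Snhg3 fell from 664, 634 and 556 to 371, 405 and 416 (-0.63), and Snhg8, Snhg1 and Snhg5 were at -0.39, -0.31 and -0.28, where Snhg8 and Snhg5 lost the call without DMSO replicate 2. Gas5, a host transcript with a 5′TOP, was at -0.22. Genes of ribosome assembly and RNA polymerase I were lower in 32 of 35 cases, also with a median of -0.28, led by Nolc1 (-0.40), Rrp12 (-0.39), Wdr12 (-0.38) and Gnl3 (-0.36). Rcl1, Polr1e and Rrn3 did not pass. Of 7 genes for chaperones that escort single ribosomal proteins, Grwd1 (-0.41), which binds Rpl3, and Heatr3 (-0.27), which carries Rpl5, were lower, and Bccip (-0.14), Tsr2 (-0.18), Pdcd2 (-0.02), Pdcd2l (-0.03) and Aamp (-0.03) did not pass.

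Of 16 genes that control 5′TOP mRNAs or mTORC1, 2 were lower, 2 were higher and 12 did not pass (median -0.05). Larp1, which binds the 5′TOP, fell from 7141, 7028 and 6815 to 5819, 6076 and 5941 (log2 fold change -0.23, adjusted p = 2.70e-05). Tsc2, which restrains mTORC1, was higher (0.34), as was Tia1 (0.21), and Eif4ebp1 was lower (-0.15, adjusted p = 0.04), a call lost under 10 of 16 settings. Of 6 genes listed with the MYC family, 2 were lower, 1 was higher and 3 did not pass (median -0.06). Myc and Mycn are known for driving ribosome production, and the list also holds opponents of MYC, so its counts mix both kinds. Mycn fell from 1357, 1378 and 1248 to 622, 584 and 604 (-1.14), Myc was at -0.22 and lower, and Mxd1, which opposes MYC, was higher (0.22). Max (-0.11), Mnt (-0.01) and Mxd4 (0.02) did not pass.

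The mitochondrial ribosome is a separate particle with its own proteins. Of its 77 genes, 42 were lower and 0 higher, with a median log2 fold change of -0.19, and 93.5% of them lay below 0, with quartiles of -0.28 and -0.13 and a range of -0.47 to 0.13. The difference between both families was not tested.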

How the data were processed

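Total RNA of 6 libraries was sequenced, 3 per group by the treatment label. The table deposited by the authors holds a normalised signal for each gene and library. Judged by their steps, the values are read counts divided by a factor per library, since all low values are whole multiples of the library's smallest value (0.973 to 1.04). The submitters' processing notes name STAR, DESeq2, mm10 and GRCm38. How reads were counted, by strand and where they map to several genes, is not given in the sources used here. DMSO replicates 2 and 3 have a smallest value too near 1 to tell it from rounding, so no count model was run. In units of the smallest value, libraries of the same group differed by more than sampling noise (chi-square per degree of freedom 1.57 to 3.51 over all genes) and were kept as 6 samples. For the members, chi-square per gene was 25.7 to 32 between DMSO libraries and 5.22 to 12 between GSK-LSD1 libraries. DMSO replicate 1 differed from the other DMSO libraries (29.9 and 32) about as much as from the GSK-LSD1 libraries (31.1 to 34). For DMSO replicates 2 and 3 against the GSK-LSD1 libraries it was 65.6 to 95.4.

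Genes with a value of at least 10 in at least 3 libraries (11588 of 15035) were tested two-sided in R 4.3.3 by limma 3.58.1. The model used log2(value + 1), a trend of variance on mean and no replicate term. P-values were adjusted by Benjamini-Hochberg across the tested genes, and 0.05 was the threshold. Fold changes keep this log2 scale, which understates changes of low values, and errors are standard errors or SD with n = 3. The test was checked on simulated data. Of the symbols in the table, 22 had been turned into dates and are not named. The members and the gene lists were chosen with earlier results of these data known, and the lists support nothing by themselves. Genes named with values were the 10 largest falls among members past the threshold, all members not past it, the 5 with the highest mean, members of the structural, copy and anemia lists, Rps6 and Rps14, and up to 4 genes per direction from other lists; genes added beside these were named after their values were seen. Coding sequences were the principal transcripts of GENCODE M21 (GRCm38), and promoters came from RefSeq. Alternatives covered the pseudocount, the filter, the scaling, the trend, a replicate block and each library left out. A few of the selected or listed genes enter the counts and are not reported here by name.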

Additional observations from a re-analysis of the deposited data

How the results depend on the processing

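The median log2 fold change of the ribosomal protein genes was -0.195 and moved beyond the library spread only with quantile scaling, to -0.146; over left-out libraries it ranged from -0.227 to -0.174. The number of lower members, 63, went to 35 without the mean-variance trend and stayed between 54 and 63 under the other pseudocounts, filters, scalings and the replicate block. Leaving out libraries gave 52 to 70, and none was higher in any setting. Among members that share under 50% of their 50-base stretches with other genes, a subset chosen after seeing the data, 10 were lower. Of the 63, 35 kept the call in all 16 settings and 28 lost it in at least 1. Rpl21 turned to 0.00 with quantile scaling and ranged from -0.07 to 0.05 over left-out libraries (0.05 without DMSO replicate 3). Rpl34 ranged from -0.44 to 0.17, with 0.14 without DMSO replicate 2 and 0.17 without GSK-LSD1 replicate 2; Rpl34 has too few reads for a direction, and for Rpl21 the cause was not tested. The difference in summed share ranged from -0.737 to -0.536 percentage points over left-out libraries. Without the trend, the counts of lower genes fell to 27 of 77 mitochondrial ribosomal proteins, 2 of 16 other 5′TOP translation genes, 1 of 3 ribosomal proteins under other names, 3 of 7 small nucleolar RNA hosts and 1 of 16 genes of 5′TOP control. The last count was also 1 without a filter and with each of the 4 other scalings. With quantile scaling 1 other 5′TOP gene and 2 p53 response genes were higher, and with each of the 4 scalings 1 mitochondrial ribosomal protein gene was. Left-out libraries gave 1 to 2 lower genes of 5′TOP control, 7 to 12 other 5′TOP genes, 3 to 6 small nucleolar RNA hosts, 0 to 1 higher mitochondrial gene, 0 to 1 lower and 1 to 2 higher p53 response genes. The replicate numbers showed no strong pairing of the samples. Same-numbered libraries correlated at -0.0241, -0.0276 and -0.00771 in their deviations from the group means, and the replicate block gave 61 lower members. Such values cannot exclude that same-numbered libraries were handled together, and Rps24 gained a call with the block. With 3 libraries per group, a log2 fold change of -0.10 with an SE of 0.0435 (Rpl19) did not pass, so changes of this size can be missed at this spread.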
